A study of Mus musculus with 3 samples.

Results

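The small leucine-rich proteoglycans and versican were followed through developing mouse back skin by 9 genes, *Dcn*, *Lum*, *Bgn*, *Fmod*, *Ogn*, *Omd*, *Aspn*, *Prelp* and *Vcan*, taken by name from the 19165 genes of a single-cell RNA-seq table. All 9 had at least 1 unique molecular identifier (UMI, a counted transcript) in each library. Back skin of male C57BL/6 mice was sampled on the embryonic days named E13.5 and E16.5 and on the day of birth (P0), with 1 library a stage and no treatment, so the 3 groups differ in stage, in library and, for P0, in digestion enzyme. E13.5 and E16.5 skin was digested with trypsin and P0 skin with collagenase IV, and the libraries were made with the 10x Genomics 3′ kit, version 2 chemistry. In stage order the libraries held 5962, 5208 and 5065 cells with 53334740, 66239195 and 46599806 UMIs, and the median depth was between 6797 and 11021 UMIs a cell. Between 32 and 44 cell barcodes were shared by each pair of libraries. Each library pooled the skin of several males, so the spread between animals cannot be seen, stage, library and enzyme cannot be told apart, no p-value can be had, and the intervals below cover counting error only.

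Small leucine-rich proteoglycans are secreted proteins built around a leucine-rich repeat domain, and many of them carry chondroitin, dermatan or keratan sulfate chains. In skin they lie along collagen fibrils and are known for setting how thick and how evenly spaced those fibrils become. Versican is a large chondroitin sulfate proteoglycan of another family. It binds hyaluronan, swells the matrix around mesenchymal cells, and is a well known marker of the hair follicle's dermal papilla, the cluster of dermal cells that grows from the dermal condensate under the epithelial placode.

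Several of the genes are neighbours. On GRCm38, *Dcn* (chr10:97479609-97518143, plus strand) and *Lum* (chr10:97565128-97572703, plus strand) lie 46.98 kb apart, and *Kera* and *Epyc*, 2 relatives, follow on the same strand. *Aspn* (chr13:49544443-49567565), *Omd* (chr13:49582462-49592822) and *Ogn* (chr13:49608046-49624501) stand in a row on the plus strand with gaps of 14.90 and 15.22 kb, behind *Ecm2*. *Prelp* (chr1:133910304-133921414, minus strand) and *Fmod* (chr1:134037254-134048277, plus strand) are 115.84 kb apart, while *Vcan* (chr13:89655312-89742509, minus strand) and *Bgn* (chrX:73483602-73495933, plus strand) have no other member near them.

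The promoters of the row on chromosome 13 are printed because *Aspn* and *Ogn* were both high in deep dermis while *Omd*, between them, was almost silent. Each is the 200 bases that end just before the RefSeq start (GRCm38.p6, plus strand), and capitals mark the TATA letters (TATAAA), the CCAAT box and the E-box (CANNTG, which can overlap CCAAT), searched on both strands.
Aspn, chr13:49544243-49544442: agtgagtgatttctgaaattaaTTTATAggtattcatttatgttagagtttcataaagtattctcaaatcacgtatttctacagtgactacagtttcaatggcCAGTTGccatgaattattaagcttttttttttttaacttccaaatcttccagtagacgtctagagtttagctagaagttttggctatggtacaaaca
Omd, chr13:49582262-49582461: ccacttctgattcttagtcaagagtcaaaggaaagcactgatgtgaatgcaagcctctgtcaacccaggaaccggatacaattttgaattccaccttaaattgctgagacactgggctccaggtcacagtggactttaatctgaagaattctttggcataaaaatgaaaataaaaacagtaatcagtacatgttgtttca
Ogn, chr13:49607815-49608014: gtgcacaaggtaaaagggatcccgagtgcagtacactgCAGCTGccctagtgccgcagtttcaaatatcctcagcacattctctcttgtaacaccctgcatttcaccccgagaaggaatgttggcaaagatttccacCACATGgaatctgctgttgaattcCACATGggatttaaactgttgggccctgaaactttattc
The *Aspn* stretch held 1 TATA match, on the other strand, and 1 E-box, that of *Ogn* held 3 E-boxes, and that of *Omd* held none of the 3 motifs. Among 32851 mouse promoters of this length, 9.96% held the TATA letters, 29.3% the CCAAT box and 58.2% the E-box. G and C made up 39.0% of the *Omd* stretch and 47.0% of the *Ogn* stretch against a median of 53.0% over all promoters, and the *Aspn* stretch stood at the 2.02 percentile. A match is a run of letters and no proof of a binding site. RefSeq entries were found for 7 of the 9 genes, and *Dcn* and *Lum* were not among them.

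Cells were clustered within each library without the 9 genes and named from markers that do not include them. The dermal-like class held 1470 cells of the E13.5 library, 3292 of the E16.5 library and 2696 of the P0 library. Levels are counts per 1000000 summed UMIs of a class (CPM), and differences are log2 ratios after adding 10 CPM, so that low genes are pulled toward 0. As 3′ UMI counts do not grow with transcript length, the genes are set side by side on this scale. *Dcn* and *Lum* led in dermal-like cells of each library and together made up 71.3%, 84.8% and 74.0% of the UMIs of the 9 genes, in stage order.

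*Dcn* encodes decorin, which binds collagen I and limits fibril thickness, and stood in dermal-like cells at 1025, 2534 and 3101 CPM, in the same order. *Bgn* encodes biglycan, its closest relative, and stood at 299, 429 and 1403 CPM. *Aspn* encodes asporin, named for a run of aspartates, and stood at 114, 161 and 438 CPM. All 3, the class I members, were highest at P0 in these sums, though for *Dcn* the difference from E16.5 to P0 ran from -0.49 to 0.54 under other processing. Of the class II members, *Lum* (lumican, a keratan sulfate proteoglycan of cornea and skin) stood at 1141, 2259 and 2884 CPM. *Fmod* (fibromodulin, best known in tendon) was low at 5.80, 10.9 and 3.26 CPM, and *Prelp* (prolargin, which binds heparan sulfate) went from 0.777 to 9.61 and 19.3 CPM. *Omd* (osteomodulin, a bone matrix protein) reached 3, 9 and 45 UMIs in all dermal-like cells of the 3 libraries. *Ogn* (osteoglycin, of class III) stood at 176, 66.1 and 124 CPM, and *Vcan* was lower in each later library, at 277, 181 and 108 CPM.

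**Figure D1:**
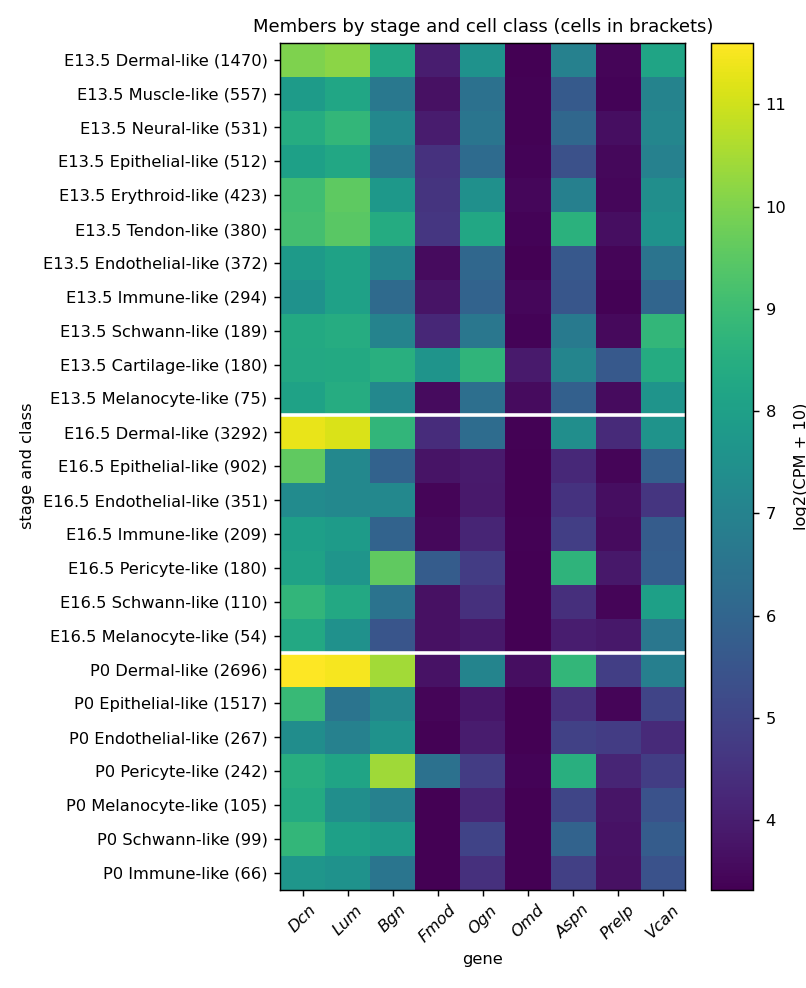
Level of each gene (columns) in each class of at least 50 cells (rows, with the number of cells), as log2(CPM + 10) by colour. *Dcn* and *Lum* are brightest in the dermal-like rows of all 3 stages, *Dcn* but not *Lum* is bright in the epithelial-like rows of E16.5 and P0, and *Bgn* and *Aspn* are bright in the pericyte-like rows, at 752 and 404 CPM at E16.5.

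Against epithelial-like cells of the same library, 6, 6 and 7 of the 9 genes were at least 2-fold higher in dermal-like cells of the 3 stages (log2 difference of at least 1, the size used for every count here). Among all genes with at least 50 UMIs in the cells compared, the share that far up was 3.70%, 7.59% and 7.73%. The 6 were *Dcn*, *Lum*, *Bgn*, *Ogn*, *Aspn* and *Vcan* each time, and *Prelp* joined them at P0 (19.3 against 0.809 CPM). For *Lum* the difference was 1.87 (1.80 to 1.95), 3.95 (3.89 to 4.01) and 4.98 (4.91 to 5.04) in the 3 libraries, the widest of the 9 at E16.5 and P0 but not at E13.5, where *Dcn* had the widest (1.91 to 2.08). *Omd* had under 50 UMIs in these cells at each stage, and *Prelp* at E13.5.

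UMIs of these genes were also found in cells of other classes, most often at E13.5. With every cell thinned to 3500 UMIs, *Lum* had a UMI in 91.0% of dermal-like but also in 58.3% of endothelial-like cells at E13.5 (median depths 10355 and 7674 UMIs), in 96.8% and 30.5% at E16.5 (10402.5 and 16540 UMIs), and in 93.6% and 23.6% at P0 (6055 and 9713 UMIs). *Dcn* gave 85.7% and 51.3%, 95.7% and 32.5%, and 93.5% and 29.2%. Unthinned, the endothelial-like cells held 264, 135 and 115 CPM of *Lum*. No measure of free RNA was made, and *Lum* levels at or below those are not read here as expression. A level above them is no proof of expression either. Pericyte-, immune-, Schwann- and melanocyte-like cells all held more *Lum* than endothelial-like cells, at 173 to 311 CPM at E16.5 and 161 to 273 at P0. Erythroid-like cells of E13.5 held 522 CPM of *Dcn* and 741 of *Lum*. The 979 unnamed cells of that library, 663 of them in a cluster led by platelet genes, held 742 and 1013 CPM.

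In epithelial-like cells of E16.5 and P0 *Dcn* was above the endothelial-like level of 150 and 158 CPM. Over the class, *Lum* was close to its endothelial-like level at E16.5 (137 against 135 CPM) and below it at P0 (81.8 against 115). Pericyte-, immune-, Schwann- and melanocyte-like cells were also above the endothelial-like level of *Dcn*, at 245 to 431 CPM at E16.5 and 194 to 438 at P0. In the E16.5 library epithelial-like cells held 764 CPM of *Dcn* and 137 of *Lum*, a ratio of 5.60, whereas the ratio was 1.12 in dermal-like cells and, in the other classes of at least 50 cells, between 1.08 (immune-like) and 1.80 (melanocyte-like). At P0 they held 474 and 81.8 CPM, a ratio of 5.79 against 1.08 in dermal-like cells and between 1.09 (immune-like) and 2.02 (melanocyte-like) in the others. At E13.5 the ratio was 0.819 in epithelial-like and 0.898 in dermal-like cells. The part of free RNA and of doublets in these values was not tested. In thinned cells a *Dcn* UMI was found in 81.2% of epithelial-like cells at E16.5 and 53.6% at P0, beside 32.2% and 22.4% for *Lum*.

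Within the epithelium *Dcn* differed by cluster. At P0 it ran from 102 to 1399 CPM over the epithelial-like clusters, while *Lum* stayed between 69.1 and 99.2 CPM. The 128 cells led by *Krt28*, *Krt35*, *Msx1* and *Krt71*, keratins and a regulator of the hair matrix and inner root sheath, held 1399 CPM (1336 to 1465), 20.1 times their *Lum*. Next came 247 cells led by *Shh*, the signal of the growing follicle tip, at 984 CPM (948 to 1022), and then the basal cells rich in *Krt14*, at 521 CPM in 265 cells and 389 in 91 cells. *Krt10*-rich suprabasal cells held 165 CPM (147 to 185), and the follicle clusters led by *Lhx2* and by *Tbx1* 354 and 252 CPM. The 130 cells led by *Krt79*, a gene of the follicle's upper part, held 102 CPM, below the 158 of endothelial-like cells. At E16.5 the placode-type cluster with *Lhx2*, *Dkk4* and *Shh* was highest, at 1196 CPM (1157 to 1237), followed by both basal clusters at 746 and 668 CPM and the *Krt10*-rich one at 284.5 CPM. The same cluster of E16.5 was highest in *Lum* (234.5 CPM) and in *Col1a1* (1064 CPM), a dermal marker. The P0 cluster highest in *Dcn* held 190 CPM of *Col1a1*. That was close to the 194 CPM of the *Tbx1*-led cluster and of the 265 *Krt14*-rich cells.

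**Figure D2:**
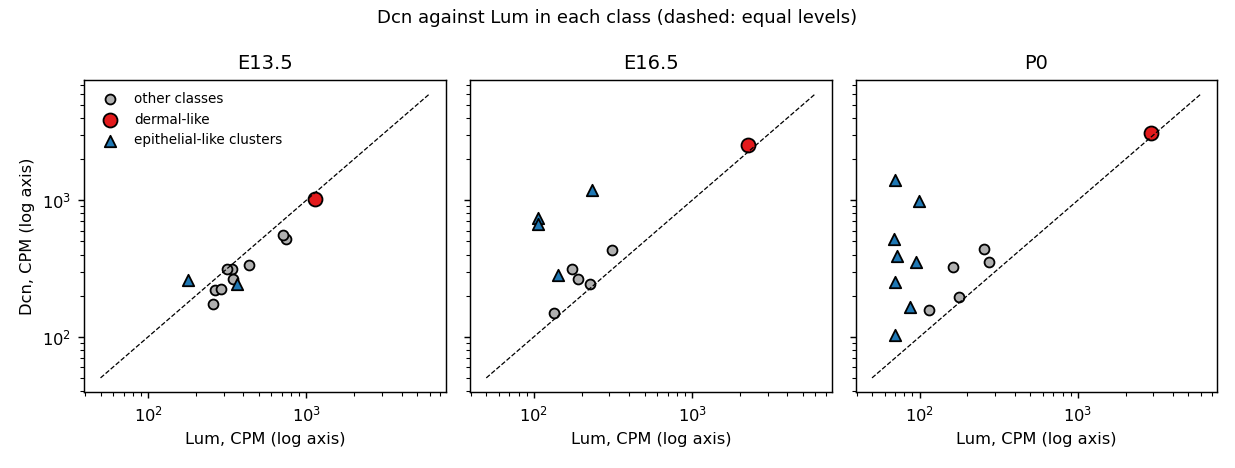
*Dcn* (vertical) against *Lum* (horizontal), CPM on log axes, 1 panel a stage: the dermal-like class (red), other classes of at least 50 cells (grey) and single epithelial-like clusters (triangles), with equal levels dashed. At E13.5 the points lie near the dashed line, while at E16.5 and P0 most triangles lie above it, up to 1399 CPM of *Dcn* at 69.5 of *Lum*.

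Other classes stood out for single genes. Pericyte-like cells, the contractile cells around small vessels, passed 2-fold upward for 2 genes at E16.5 and 1 at P0 (3.39% and 4.98% of all genes) and downward for 4 at each (3.47% and 4.16%). Their *Bgn* was within 2-fold of dermal-like cells, at 752 against 429 CPM at E16.5 and 1365 against 1403 at P0. *Aspn* was at 404 CPM in pericyte-like cells at E16.5 against 161 in dermal-like cells, and at 360 against 438 at P0. Among whole classes of at least 50 cells, the highest *Fmod* of E16.5 and P0 was also there, at 43.2 and 75.3 CPM. The log2 differences from dermal-like cells were 1.35 (1.09 to 1.60) and 2.69 (2.45 to 2.92). A sub-cluster of 155 dermal-like cells of E16.5 held more *Fmod*, at 47.6 CPM. *Dcn*, *Lum*, *Ogn* and *Vcan* were lower in pericyte-like than in dermal-like cells at both stages, *Dcn* at 266 and 353 CPM.

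Among whole classes of at least 50 cells *Vcan* was highest in Schwann-like cells, the glia of peripheral nerves, at E13.5 and E16.5, though deep dermal-like cells of E16.5, a subset of the dermal-like class, held more (380 CPM). They held 436 CPM against 277 in dermal-like cells at E13.5 (log2 difference 0.64, 0.53 to 0.74) and 250 against 181 at E16.5 (0.45, 0.30 to 0.60). At P0 they held less, 43.6 against 108 CPM (-1.14, -1.59 to -0.68). *Prelp* in endothelial-like cells went from 0.750 and 2.25 CPM to 17.5 at P0, close to the 19.3 of dermal-like cells.

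At E13.5 the cartilage-like cluster of 180 cells, which also carried markers of the meninges, held 183 CPM of *Fmod* against 5.80 in dermal-like cells, 40.1 of *Prelp* against 0.777 and 420 of *Ogn* against 176. *Dcn* and *Lum* were lower there, at 312 and 315 CPM, so 3 genes passed upward and 2 downward, where 2.24% of all genes did each way. Tendon-like cells, named from *Scx*, *Tnmd* and their like, were counted as higher only for *Aspn*, at 384 against 114 CPM (log2 difference 1.67, 1.57 to 1.76, 1.63% of all genes). They held 15.1 CPM of *Fmod* against 5.80, a difference of 0.67 after adding 10 CPM.

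Dermal-like cells were next compared by depth. Deep cells were named from *Dlk1*, *Mest*, *Cd34*, *Ly6a* and *Mfap5* and the like, and upper cells from Wnt pathway genes such as *Axin2*, *Lef1* and *Apcdd1*. The deep and upper cells numbered 141 and 712, then 871 and 639, then 848 and 1117 in stage order. In deep cells 3 of the 9 genes were at least 2-fold higher at E13.5 and 5 at each later stage, against 3.09%, 2.55% and 2.93% of all genes. None of the 9 was 2-fold lower, against 4.10%, 1.88% and 5.07%. *Ogn* and *Aspn* were among them each time.

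*Aspn* was at 103 CPM in deep and 21.1 in upper cells at E13.5, at 499 and 9.67 at E16.5, and at 955 and 143 at P0, log2 differences of 1.87 (1.60 to 2.12), 4.69 (4.51 to 4.88) and 2.66 (2.56 to 2.75). Unnamed dermal-like cells, which met no subset's rule, held 209 CPM of *Aspn* at E13.5 (617 cells), above the deep cells. They held 18.2 CPM at E16.5 (1401 cells) and 341 at P0 (491 cells). The highest *Aspn* of E13.5, 401 CPM, was in a sub-cluster of 151 unnamed cells. In deep and upper cells *Ogn* was at 411 and 73.3, 165 and 13.4, and 261 and 41.6 CPM, with differences of 2.34, 2.90 and 2.40. Both neighbours of *Omd* were thus higher in deep than in upper cells in all 3 libraries. *Omd* itself had 0 and 2 UMIs, 4 and 0, and 17 and 8 in the same cells, and 0 UMIs in the 639 upper cells of E16.5 allows up to 0.492 CPM at 3 UMIs.

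*Dcn* was at 2281 CPM in deep and 754 in upper cells at E13.5 and at 5772 and 1593 at P0, differences of 1.58 (1.52 to 1.65) and 1.85 (1.82 to 1.88), but at 3097 and 2183 at E16.5, a difference of 0.50 (0.47 to 0.53). *Lum*, its neighbour, did not share this. It was at 1652 and 1081 CPM, at 1909 and 2833, and at 2918 and 3019 in stage order. The differences, 0.61, -0.57 and -0.049, all lie within 2-fold.

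Sub-clusters show how even this was. At P0 the 4 deep sub-clusters held 2380 to 6629 CPM of *Dcn* and the 4 upper ones 1289 to 1783, with no overlap, while for *Lum* they spread over 805 to 5962 and 1888 to 5236. The highest *Lum* of P0, 6423 CPM, was in 253 cells that met neither marker list. *Aspn* did not overlap between deep and upper sub-clusters at E16.5 (195 to 1683 against 6.29 to 27.9 CPM) or P0 (452 to 1206 against 87.1 to 273). *Ogn* overlapped at both stages, at 53.8 to 348 against 6.13 to 61.0 and at 64.7 to 288 against 17.6 to 77.9 CPM. The E13.5 library had only 1 deep sub-cluster. How many of all genes separate deep from upper sub-clusters without overlap was not counted, here or for *Vcan* below.

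**Figure D3:**
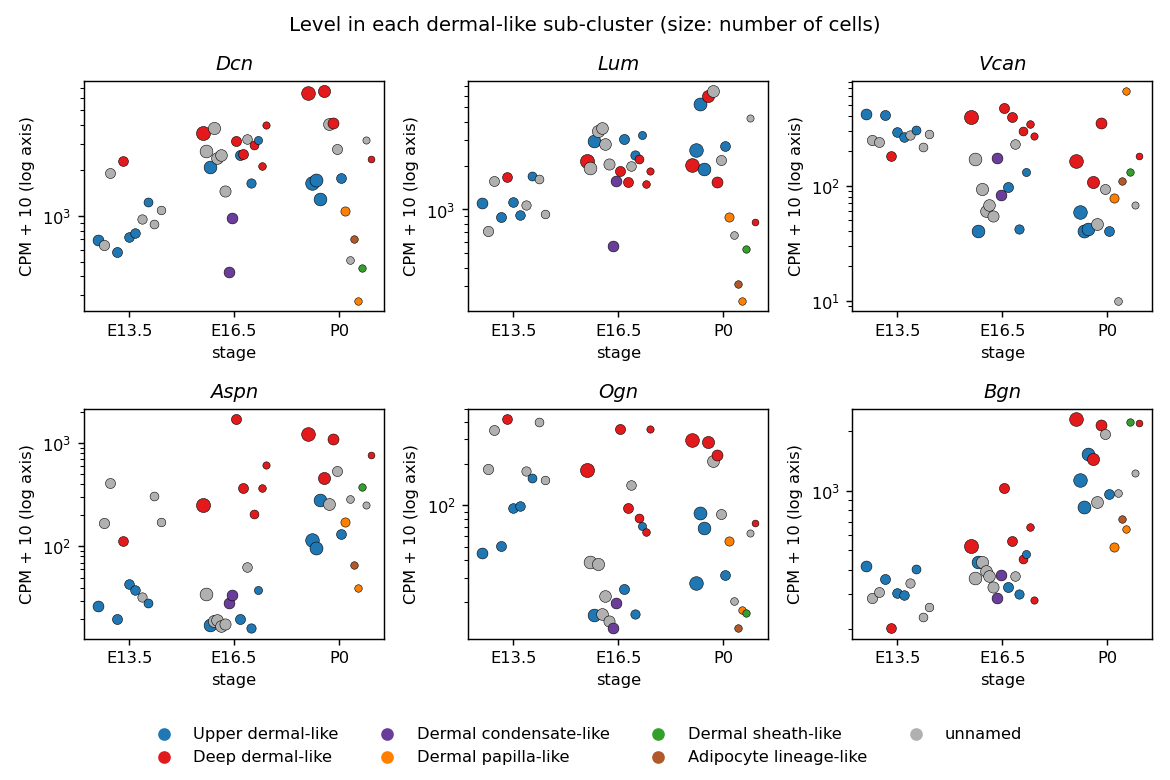
CPM + 10 on a log axis for 6 of the genes, 1 point for each dermal-like sub-cluster (size by number of cells, colour by subset), at the 3 stages. Deep sub-clusters (red) lie above upper ones (blue) for *Aspn*, and for *Vcan* they lie below at E13.5 and above at E16.5 and P0. *Lum* mixes the colours at E16.5 and P0.

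*Vcan* took opposite sides at different stages. At E13.5 it was at 171 CPM in deep and 332 in upper cells, a difference of -0.92 (-1.10 to -0.74), just short of 2-fold. At E16.5 it was at 380 and 53.1 CPM, a difference of 2.63 (2.49 to 2.77), and at P0 at 189 and 37.9 CPM, a difference of 2.06 (1.90 to 2.21). All 5 upper sub-clusters of E13.5, at 254 to 412 CPM, were above the deep one. All 6 deep ones of E16.5, at 258 to 461 CPM, were above the 4 upper ones, at 30.7 to 120, and at P0 the ranges were 97.8 to 337 and 30.0 to 48.8 CPM. *Bgn* had the same signs with smaller differences, at 192 and 343 CPM, 590 and 367, and 2017 and 1128, differences of -0.80, 0.67 and 0.83.

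Of the sparse genes, *Fmod* was at 27.7 CPM in deep and 2.29 in upper cells at E16.5 (difference 1.62, 1.43 to 1.80) and at 7.80 and 0.840 at P0. *Prelp* was at 21.7 and 2.13 CPM at E16.5 and at 43.4 and 5.18 at P0, differences of 1.39 (1.20 to 1.57) and 1.82 (1.60 to 2.03). Its highest values were 139 CPM in 35 deep E16.5 cells, a sub-cluster with all 7 deep markers high, and 97.0 CPM in 200 deep P0 cells that had all 7 deep and all 7 adipocyte markers high. Fewer than 50 UMIs of *Fmod* and *Prelp* were present at E13.5.

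**Figure D4:**
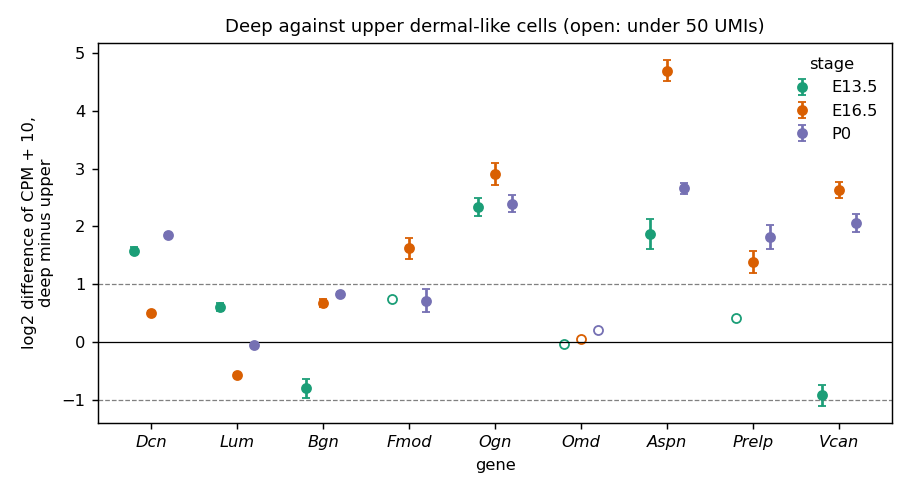
Log2 difference of CPM + 10 between deep and upper dermal-like cells for each gene at E13.5 (green), E16.5 (orange) and P0 (purple), with 95% intervals for counting error and open points for under 50 UMIs. Dashed lines mark 2-fold. *Aspn* reaches 4.69 at E16.5, and *Vcan* lies at -0.92 at E13.5 and at 2.63 and 2.06 later.

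Other markers moved with this split. The summed CPM of 6 cycling markers was 392 in deep and 2732 in upper cells of E13.5, then 1460 and 3259, then 243 and 2362. The counts of 3, 5 and 5 genes were the same without the sub-clusters in which cycling markers were high. The 7 adipocyte markers summed to 20.7 and 13.7 CPM, 227 and 65.7, and 1557 and 197. Without deep sub-clusters that had 3 or more adipocyte markers high, 6 genes passed at E16.5 and 4 at P0. Epithelial markers summed to 83.4 and 87.5 CPM, 567 and 606.5, and 596 and 664.5, with none at 0, and neural markers to 64.1 and 119, 41.0 and 522, and 53.6 and 193. Their part in the differences was not tested.

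The genes that build on or work with these proteoglycans followed depth in part. Of 11 fibrillar and associated collagens, 6 of 10 tested were at least 2-fold higher in deep cells of E13.5, then 6 of 11 and 8 of 11, with median differences of 1.12, 1.11 and 1.36 against -0.05, -0.07 and -0.18 over all genes. *Col12a1*, a fibril-associated collagen, led at 290 against 67.5 CPM, 462 against 42.6 and 274 against 53.9, while *Col6a3* was lower at E13.5 (46.2 against 127 CPM). Fibril processing genes passed 2-fold upward in 2 of 6, 3 of 7 and 4 of 7, among them the crosslinking enzyme *Lox* at E13.5 and E16.5 and *Loxl1* at all 3 stages (103 against 15.2, 236 against 17.1 and 417 against 93.9 CPM).

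Partners of versican split. *Fn1* (fibronectin) and *Fbn1* (fibrillin) were higher in deep cells in all 3 libraries, *Fbln1* was lower at E13.5 (132 against 546 CPM) and *Fbln2* lower at P0 (a difference of -1.25), so 2 of 5 were 2-fold higher and 1 lower at E13.5, 3 and 0 at E16.5, and 2 and 1 at P0. Of the proteases that cleave versican, 2 of 4 were higher in deep E13.5 cells, *Adamts5* (146 against 4.60 CPM) and *Adamts1* (88.3 against 13.3), and none of 6 at E16.5 or of 4 at P0. The hyaluronan list gave *Cemip*, which breaks hyaluronan down, at 119 against 6.70 CPM and *Has2*, which makes it, at 2.76 against 21.4 at E13.5, and no gene past 2-fold later.

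The enzymes that put sugar chains on the core proteins hardly followed. None of the 14 to 17 linker, chondroitin and dermatan sulfate enzymes tested passed 2-fold at any stage, with medians of 0.15, 0.24 and 0.07. Among keratan sulfate enzymes *Chst1* was lower in deep cells at E13.5 (8.96 against 34.4 CPM) and higher at E16.5 (24.1 against 4.59), where *Chst2* was too (101 against 35.4). Of other leucine-rich relatives, *Kera* was higher at E13.5 (26.9 against 3.42 CPM), none at E16.5, and *Ecm2* (22.0 against 2.10) and *Podn* (31.9 against 9.66) at P0. *Cd44*, the 1 tested gene among other hyaluronan-binding proteins, was at 76.5 against 22.3 CPM at E13.5 and within 2-fold later. *Col1a1*, *Col1a2*, *Col3a1* and *Fbln1* also served as dermal markers.

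Condensate-like cells of E16.5, 381 cells named from *Sox2*, *Sox18*, *Foxd1* and the like, had 4 of the 9 genes at least 2-fold lower than the other 2911 dermal-like cells, against 2.73% of all genes, and none higher, against 2.55%. Those other cells included 211 unnamed cells with 6 condensate markers high, but none among their 10 leading genes. They also included a sub-cluster of 118 upper cells that had 6 condensate markers high. In condensate-like cells *Dcn* was at 703 against 2729 CPM, a difference of -1.94, and *Lum* at 1071 against 2385, a difference of -1.15 (-1.19 to -1.10). *Aspn* was at 21.4 against 176 and *Ogn* at 6.47 against 72.4 CPM, differences of -2.57 and -2.32. *Bgn* (324 against 440), *Vcan* (117 against 187) and *Prelp* (6.47 against 9.94) were within 2-fold. *Fmod*, at 2.81 against 11.8 CPM, was not counted, as its difference after adding 10 CPM was -0.76.

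The cells fell into a pair of sub-clusters. In the 191 cells with more *Sox2* (269 CPM), *Dcn* was at 418, *Lum* at 556 and *Vcan* at 165 CPM. In the 190 cells with 48.3 CPM of *Sox2* they were at 967, 1549 and 73.2. The first had the lowest *Dcn* and *Lum* of all dermal-like sub-clusters of E16.5. Neural markers summed to 861 CPM in condensate-like cells, with 1 of 7 at 0, against 522 in upper and 41.0 in deep cells, and their part in the result was not tested. Fibrillar collagens were lower in 5 of 11, among them *Col1a2* and *Col12a1* (24.8 against 221 CPM), and fibril processing genes in 4 of 7, led by *Lox* (27.8 against 226). Of 6 versican proteases 3 were higher, *Adamts4* (79.6 against 15.7) and *Adamts20* (57.7 against 11.8) the most, and *Adamts1* was lower (25.9 against 82.6). Of 5 partners *Fbln2* was higher (512 against 113) and *Fn1* (84.4 against 337) and *Fbn1* (66.7 against 151) lower, and *Cd44* and the link protein gene *Hapln3* were higher.

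Papilla-like cells of P0, 155 cells named from *Sox18*, *Bmp4*, *Corin* and the like, had 6 of 9 genes at least 2-fold lower than the other 2541 dermal-like cells and 1 higher, against 3.50% and 6.05% of all genes. *Lum* was at 661 against 3043 CPM (difference -2.19, -2.29 to -2.09), *Dcn* at 800.5 against 3265, *Aspn* at 117 against 461, *Ogn* at 32.2 against 131, *Bgn* at 553 against 1464 and *Prelp* at 3.31 against 20.4. *Vcan* was the gene that was higher, at 264 against 96.8 CPM (difference 1.36, 1.19 to 1.52).

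This rested on 43 cells for *Vcan* and held in both sub-clusters for the others. The 43 cells, with 110 CPM of *Sox2*, held 648.5 CPM of *Vcan* and 267 of *Dcn*, 228 of *Lum* and 29.4 of *Aspn*. The 112 other cells held 67.5 of *Vcan* and 1073, 882 and 162 of the same genes, and with them alone the *Vcan* difference was -0.46. Those 112 cells also held 1110 CPM of *Krt14* against 140 in the 43, and the 11 epithelial markers summed to 2522 CPM over both, with none at 0, and their part in the values was not tested. A further 52 cells with 8 of 12 papilla markers high, but none among their 10 leading genes, stayed unnamed, by a rule made after seeing clusters. They were counted among the other dermal-like cells. They had 0 *Vcan* UMIs, where 3 UMIs would be 10.2 CPM, and 505 CPM of *Dcn*.

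Collagens were lower in papilla-like cells in 6 of 11 genes and fibril processing genes in 5 of 7. The proteases *Adamts15* (102 against 3.73 CPM) and *Adamts20* (39.7 against 1.66) were higher and *Adamts5* (30.6 against 72.1) lower, of 6. Of 5 partners *Fbln2* (689 against 174) was higher and 3 were lower, among them *Fn1* (81.9 against 302) and *Fbln1* (101 against 254.5). Sheath-like cells, 41 cells named from genes of the follicle's muscle-like coat such as *Acta2* and *Itga8*, held 441 CPM of *Dcn*, 523 of *Lum* and 2207 of *Bgn*. There *Omd* had its highest level of all, 10 UMIs in 7 of the 41 cells, 32.9 CPM (15.8 to 60.5), against 1.12 CPM in upper and 2.88 in deep cells, while pericyte markers, which share *Acta2* and *Tagln* with the sheath list, summed to 1852 CPM there and neural ones to 1033. The 44 adipocyte-like cells held 45.1 CPM of *Prelp*, 690 of *Dcn* and 299 of *Lum*.

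Across stages the values can only be set side by side. Dermal-like clusters led by another class's markers were left out here. They were 227 cells at E13.5, and at E16.5 626 cells led by *Kcnk2* and *Stmn2* and 199 led by *Foxd1* and *Dclk1*. No dermal-like cluster of P0 was left out. With those cells kept, E16.5 held 161 CPM of *Aspn* and 181 of *Vcan*. Over the dermal-like clusters not led by another class's markers, 1243, 2467 and 2696 cells, *Dcn* was at 1065, 2689 and 3101 CPM, *Lum* at 1215, 2166 and 2884, *Bgn* at 309.5, 436 and 1403, *Aspn* at 104, 197 and 438, *Ogn* at 175, 80.1 and 124, and *Vcan* at 285, 214 and 108. From E13.5 to E16.5 *Dcn* was more than 2-fold higher (1.33, 1.30 to 1.35) and *Ogn* more than 2-fold lower (-1.04, -1.11 to -0.96), with 1.91% and 1.89% of all genes that far up and down. *Prelp*, at 0.524 CPM at E13.5, stood at 0.998, just short of the call. From E16.5 to P0 *Bgn* (1.66, 1.63 to 1.69) and *Aspn* (1.11, 1.07 to 1.16) passed, where 2.04% of all genes did, and none passed downward, against 2.83%. *Fmod*, at 13.0 CPM at E16.5 and 3.26 at P0, was not counted, as its difference after adding 10 CPM was -0.80. The enzyme also differs there. In the same cells 8 of 11 collagens were higher at E16.5 than at E13.5, led by *Col6a3* (836 against 109 CPM), and none at P0 than at E16.5, while *Has2* (1.88 against 14.8) and *Adamts9* (11.4 against 61.1) were lower at P0.

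Single cells carried several of the genes. In dermal-like cells thinned to 3500 UMIs the median cell had UMIs of 4, 3 and 4 of the 9 genes, in stage order, and 5, 7 and 9 cells had none. *Ogn* and *Aspn* were found together in 165, 223 and 491 cells, 1.64, 2.84 and 1.48 times the number that independent detection would give. *Vcan* and *Aspn* were together in 131, 358 and 411 cells, 0.843, 1.91 and 1.45 times that number. The same held for *Vcan* and *Ogn* (0.859, 1.78 and 1.33), so both pairs were under 1 at E13.5 and above it later. *Dcn* and *Lum*, each in most cells, were at 1.02, 1.01 and 1.02 times.

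Over the 25 groups of at least 50 cells (11 classes of E13.5, 7 of E16.5 and 7 of P0, which share libraries), the genes most like each member were found by Pearson's r of log2(CPM + 10), given without a test. *Lum* was most like *Pth1r* (0.97), *Srpx* (0.96) and *Rspo3* (0.94), *Ogn* like *AW551984*, *Zic1* and *Pdgfra* (0.94 to 0.95), the last 2 of which were naming markers of the meninges and dermis, and *Vcan* like *Tmem167*, *Mmp16* and *Swi5* (0.91 to 0.95). *Dcn* was like *Inhbb* (0.88) and *Ptgfrn* (0.84), *Fmod* like *Vtn*, *Rgs4* and *Acan* (0.83 to 0.88), *Prelp* like *Smoc1*, *Lepr* and *Sned1* (0.76 to 0.79), and *Omd* like *Cyp1b1*, *4930426D05Rik* and *Shisa3* (0.85 to 0.86). *Bgn* was most like *Pcolce* (0.91), *Gm17501* (0.90) and *Aspn* (0.89), and *Aspn* like *Nfatc4*, *Pcolce* and *Bgn*. *Bgn* and *Aspn* were the only pair of the 9 that named each other. *Dcn* and *Lum* had an r of 0.78, and *Aspn* and *Ogn* of 0.63.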

How the data were processed

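The authors aligned reads to mm10 (Cell Ranger 2.2.0, per the labels) and deposited 1 table of natural log values, ln(1 + UMIs scaled to 10000 a cell), of cells with at least 1750 genes. Whole UMI counts were recovered for all 48197283 values above 0 (tolerance 0.001). Each library was clustered alone with scanpy 1.11.5 (2000 variable genes without the members, 30 components, 15 neighbours, Leiden resolution 1), and dermal-like cells again. A class needed 3 markers at least 2-fold above the 25th percentile of clusters, and mixed or platelet-led clusters stayed unnamed. Condensate- and papilla-like sub-clusters also needed 1 marker among their 10 leading genes. The rules on mixed or platelet-led clusters and on leading genes were made after seeing clusters. The members and the 9 gene lists were chosen with earlier results of these data known. Named genes are the 9 members, for each the 3 most alike (1 is not reported here), and for each list the 2 highest and 2 lowest differences among genes with at least 50 UMIs. Levels carry exact Poisson intervals and differences approximate ones (95%, counting error). Scrublet called 84 cells at E16.5 and 106 at P0 and did not work at E13.5, and all were kept. Sequences came from RefSeq and positions from GENCODE vM21.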

Additional observations from a re-analysis of the deposited data

Results flagged for a closer look

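Over the 4 comparisons made at more than 1 stage (dermal-like against epithelial-like cells, deep against upper cells, and Schwann-like and pericyte-like against dermal-like cells), 5 of the 9 genes had differences on opposite sides of 0 at different stages with counting intervals that left 0 out. How many of all genes did so was not counted, so the 5 cannot be read as a trait of these genes. Whether the stages differ was not tested, as each is 1 library. Deep against upper dermal-like cells, *Vcan* differed by -0.92, 2.63 and 2.06 in stage order, *Bgn* by -0.80, 0.67 and 0.83, and *Lum* by 0.61, -0.57 and -0.049. Dermal-like against epithelial-like cells, *Fmod* differed by -0.53, 0.63 and 0.31. Schwann-like against dermal-like cells, *Vcan* differed by 0.64, 0.45 and -1.14. Pericyte-like against dermal-like cells, *Aspn* differed by 1.27 at E16.5 and -0.28 at P0.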

How the results depend on the processing

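No paired analysis was possible because each stage is 1 library. The counts of genes 2-fold higher in dermal-like than epithelial-like cells, higher in deep than upper cells, and lower in condensate- or papilla-like cells stayed within 1.5 times under every alternative that gave them. The 1 gene counted as higher at E16.5 than at E13.5 became 2 at resolution 0.5, at resolution 2, with the members among the features, with at least 2500 genes a cell, with the mean over cells, with thinned cells, and without condensate-like and similar cells, and 3 without doublets and with 1 CPM added. The 2 counted at P0 against E16.5 became 1 with at least 2500 genes a cell, without doublets, with the mean over cells and with thinned cells. *Vcan* in papilla-like cells reversed to -0.46 without the 43 *Krt14*-low cells (an alternative chosen after seeing the data). *Lum* in deep against upper cells at P0 ranged from -1.11 to 0.98. From E16.5 to P0 the difference in dermal-like cells ranged from -0.49 to 0.54 for *Dcn*, from -0.37 to 0.70 for *Lum* and from -0.83 to 0.89 for *Ogn*. Deep cells at E13.5 and papilla-like cells at P0 were not found at resolution 0.5, and no upper cells when markers were judged against the median of clusters, so those gave no value.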
